A study of Drosophila melanogaster with 9 samples.

Results

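The mitochondrial ribosomal protein genes of Drosophila melanogaster were followed through an RNA immunoprecipitation from ovaries. Members were the FlyBase gene IDs whose symbol in Ensembl's BDGP6 annotation starts with mRpL (large subunit) or mRpS (small subunit), together called mRp genes here. The count tables held 71 of them among 17024 IDs, of which 47 were mRpL and 24 mRpS genes. The annotation lists 73 such symbols, and mRpS5 and mRpS34 are not analysed here. All flies carried aramis::GFP::FLAG, a tagged form of the RNA helicase Aramis, and their ovaries were taken 1 to 3 days after eclosion. The 3 Input libraries were made from 10% of the lysate, the 3 IgG libraries from a pulldown with control mouse IgG, and the 3 IP libraries from a pulldown with an antibody to FLAG. A tagged Larp is mentioned in the series' design text, but every sample label gives aramis, and the labels were followed. The promoter that drives the tagged gene and the number of flies behind each sample are not given in the sources used here, and nothing states that replicates came from separate cohorts, so p-values measure only the spread between these libraries.

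Mitochondria carry their own ribosomes, which translate the few messages of the mitochondrial genome into core subunits of the respiratory chain and the ATP synthase. The ribosomal RNAs of both subunits are transcribed from mitochondrial DNA, whereas all the proteins of the fly mitoribosome measured here are encoded in the nucleus, made in the cytoplasm and imported. The ovary stocks the egg with the mitochondria that the embryo inherits. Messages of cytoplasmic ribosomal proteins commonly begin with a run of pyrimidines (C or T) at their 5′ end, a terminal oligopyrimidine tract, through which their translation is controlled.

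The annotated starts of the mRp genes were therefore compared with those of the cytoplasmic set. A tract was counted where at least 5 consecutive C or T bases, read on the gene's strand, began within 10 bases of the annotated start. A counted run can therefore lie before the annotated start, outside the annotated transcript. That of mRpL50 below does so wholly and that of mRpL37 for all but its last base, so the count is not one of terminal tracts in messages. It was present at 20 of 71 mRp genes (28.2%), at 67 of 88 cytoplasmic ribosomal protein genes (76.1%) and at 29.7% of 13629 protein-coding genes. The longest pyrimidine run at these positions had a median of 3 bases over mRp genes and 10 bases over cytoplasmic ribosomal protein genes. The sequences below span 15 bases before the annotated start and 15 from it on (dm6, read from the Release 6 genome, 5′ to 3′ on the gene's strand), with a tract in capitals and none where no run reached 5 bases. They are those of members that depart from the set in the results, and of mRpL3 beside RpL3, its relative in the cytoplasmic ribosome.
mRpL37 (chr3R:10784078-10784107, minus strand): gcagggaaTTTCTCTCaccatctggcagca
mRpL50 (chr3L:7243919-7243948, minus strand): gtgaatataTTTTCagtattgactgccatg
mRpL35 (chr3R:22023512-22023541, plus strand): gaatggcacacagctgactgttacgcgatt
mRpS31 (chr3L:16005178-16005207, plus strand): aacggcagtgcaaacagttcatctggtctg
mRpL3 (chrX:15761233-15761262, plus strand): aaatatcgctgatatcgatactgtggccga
RpL3 (chr3R:11221879-11221908, plus strand): cggaagtcggaatcgTTTCTTTTCCgtttt

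A second feature of these starts was TATCGATA, the DNA replication-related element (DRE) that the fly factor DREF binds. It was searched on both strands from 250 bases before to 50 bases after the start, and its first base is the only one it could share with a tract. It was present at 15 of 71 mRp genes (21.1%), against 8.8% of all 13629 protein-coding genes, 13.4% of the 8250 protein-coding genes that passed the expression filter, and 28.4% of the cytoplasmic ribosomal protein genes. The element of the fly nuclear respiratory gene type (NRG), searched by its consensus in the same windows, was at 0 of 71 mRp genes and at 0.139% of protein-coding genes. Some members had a DRE within the same 30 bases around the start, and it is shown in capitals for mRpL10, one of the lowest members in IP, and for mRpL3. A match describes these letters only.
mRpL10 (chr2L:203764-203793, plus strand): atctggcTATCGATAagaatgaataaacat
mRpL3 (chrX:15761233-15761262, plus strand): aaatatcgctgaTATCGATActgtggccga

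The libraries held 30533376 to 47080956 counts each. IgG libraries stood apart from Input and IP in one feature that the annotation does not name (FBgn000003), which took 5.89% to 14.6% of IgG counts, 0.684% to 1.04% of IP counts and at most 0.0612% of Input counts. All 7 germline markers passed the expression filter, with a summed Input level of 3470 to 3690 CPM (counts scaled to library size with TMM factors), as did the 7 follicle cell markers, with 15680 to 19100 CPM in Input, 24410 to 34200 CPM in IgG and 19150 to 24030 CPM in IP. The 11 muscle markers in the files summed to 251 to 474 CPM in Input, 677 to 3602 CPM in IgG and 175 to 1169 CPM in IP. Of the 11, 9 (81.8%) were called higher in IgG than in Input, against 10.3% of all genes. In IP 3 (27.3%) were called higher than in Input, near the 28.5% of all genes. Between IP and IgG 0 were called (6 lower in IP at an unadjusted p under 0.05, a result of 10% of all genes). The part of muscle in the values of mRp genes was not tested. Fat body markers reached 10.6 to 109 CPM over the 9 libraries and hemocyte markers 3.33 to 128 CPM. In whole ovaries, fewer cells of a type and less RNA per cell cannot be told apart.

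All mRp genes but mRpL53 were detected in the ovary. That gene had 0 counts in each of the 9 libraries, where a floor of 3 counts would be 0.0637 to 0.0983 CPM. The whole of its exonic sequence (829 bases) lies within exons of CG33155 on the same strand. How reads shared between genes were counted is not given, so the floor sets no upper limit on its expression. CG33155 itself had 3 counts in one Input library and 0 in the others. The remaining 70 members (46 mRpL and 24 mRpS) passed the expression filter, which kept 8789 of the 17024 IDs. Together the 71 members took 0.302% ± 0.00714 of Input counts, 0.288% ± 0.0187 of IgG counts and 0.251% ± 0.00457 of IP counts (mean ± SD, n = 3 each). All 3 IP libraries (0.247% to 0.256%) lay below all Input and IgG libraries (0.274% to 0.310%), and no test was run on these shares. With the unnamed feature taken out of the totals the mean IgG share became 0.318% ± 0.0188, above the Input mean of 0.302%. Their libraries overlapped, with 0.298% to 0.336% in IgG and 0.296% to 0.310% in Input.

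In Input, levels per kilobase of exon (CPM per kb) were within a narrow band for most members. Their median was 47.5 CPM per kb and the quartiles were 33.3 and 56.5, with medians of 48.3 over mRpL genes and 46.8 over mRpS genes. mRpL12, the protein of the flexible stalk that recruits translation factors and is present in several copies per ribosome in bacteria, was the highest at 120 ± 4.39 CPM per kb (SD, n = 3). It was followed by mRpS7 with 115.3 ± 8.1, a primary binder of small-subunit rRNA in bacteria, and the SDs of these overlapped. mRpL37, a protein that mitochondrial ribosomes have and bacterial ones lack, stood at 104 ± 2.2 CPM per kb, next to mRpS10 with 102 ± 2.18. mRpS18A at 81.1 ± 12.9 and mRpL30 at 79.2 ± 6.11 CPM per kb came next and did not differ beyond their spread. The 6 highest members were the same 6 when the longest transcript was taken as the length.

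**Figure D1:**
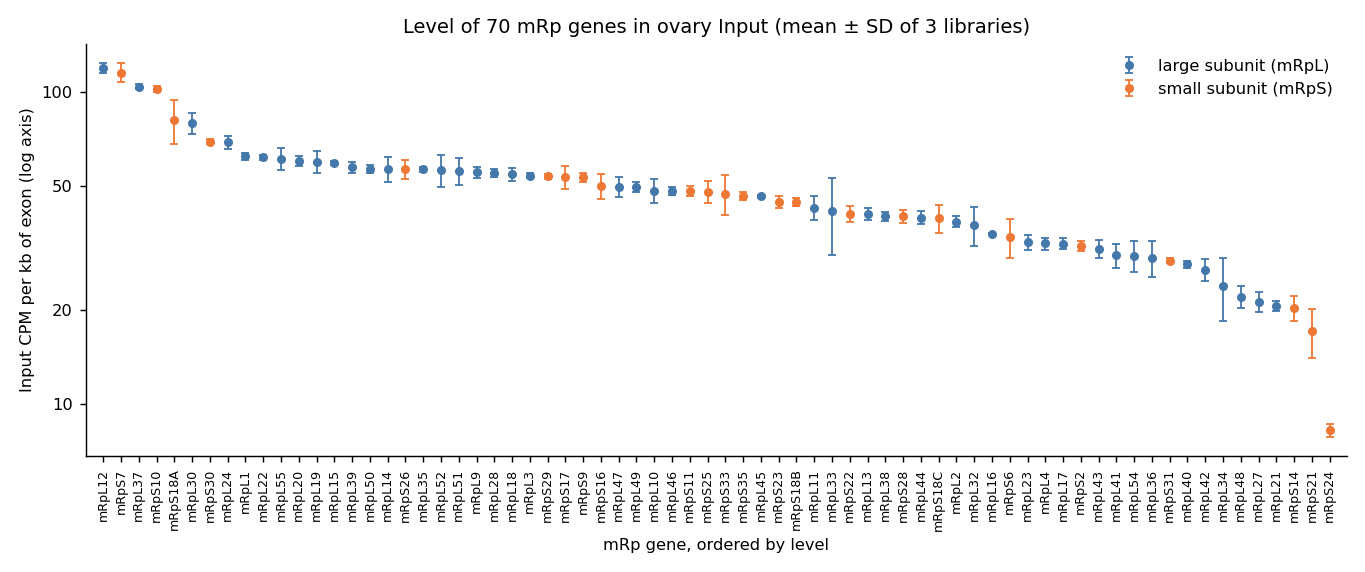
Level of the 70 tested mRp genes in Input on a log axis (CPM per kb of exon, mean ± SD of 3 libraries), ordered from high to low and coloured by subunit. mRpL12, mRpS7, mRpL37 and mRpS10 exceed 100 CPM per kb, and mRpS24 lies alone at the bottom with 8.26.

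At the low end, mRpS24 had 8.26 ± 0.407 CPM per kb in Input, mRpS21 17.2 ± 3.07, mRpS14 20.3 ± 1.84 and mRpL21 20.6 ± 0.770. mRpS24 was apart from the rest by more than its spread, while mRpS21, mRpS14 and mRpL21 did not differ from each other beyond theirs. For all of these but mRpL21, exons are shared with other genes. Of the exons of mRpS24, 332 bases also lie in TBC1d7 on the opposite strand, of those of mRpS21, 228 bases in CG8870, and of those of mRpS14, 255 bases in Naa15-16 on the opposite strand and 30 bases in CG32533 on the same strand. The rule by which shared reads were counted is not given in the sources used here. The order of members by level per kb was related between the groups, with a Spearman rho of 0.78 between Input and IP and 0.736 between Input and IgG over 70 genes, which share length and, within a group, libraries.

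Against Input, messages of the mRp set were depleted from the anti-FLAG pulldown. Of 70 tested members, 39 were called lower in IP (30.8% of all 8789 genes were called lower) and 2 were called higher (28.5% of all genes). As shares of the members these are 55.7% and 2.86%. The median log2 fold change, IP over Input, was -0.33 over mRp genes and 0.01 over all genes tested, and 60 of the 70 members lay below 0. In 43 members every IP library was below every Input library, a pattern seen in 34.4% of all genes, and in 4 members every IP library was above, against 32.3% of all genes. Calls were made with edgeR's quasi-likelihood test at a Benjamini-Hochberg adjusted p under 0.05, two-sided, with 3 libraries a group. In one fit of all 9 libraries, which takes the spread of IgG into every comparison, 19 members were called lower (16.5% of all genes in that fit) and 0 higher (15.1% of all genes).

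**Figure D2:**
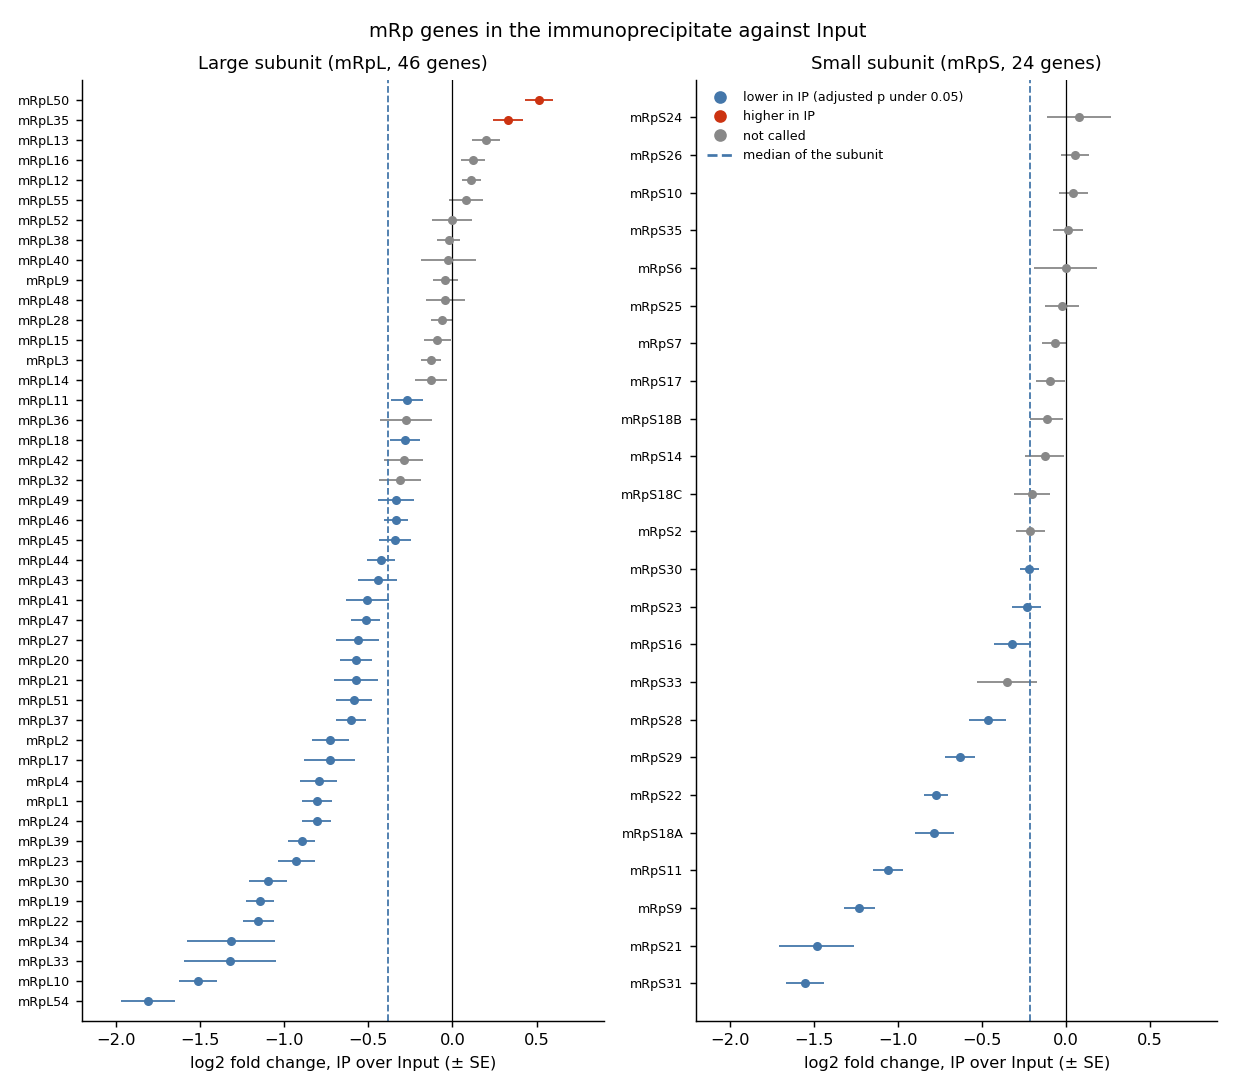
Log2 fold change of IP over Input with its standard error for each of the 70 tested mRp genes, in the large subunit (left) and the small subunit (right), coloured by the call. Most points lie left of 0, 2 large-subunit genes (mRpL50 and mRpL35) were called higher, and mRpL54 is the lowest of the set at -1.81.

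The lowest value belonged to mRpL54, a large-subunit protein with no bacterial counterpart. Its levels were 19.2, 19.0 and 23.0 CPM in Input and 6.79, 5.91 and 4.83 CPM in IP. All IP libraries were thus well below Input, a 3.5-fold decrease (-1.81 on the log2 scale, SE 0.16, edgeR adjusted p = 7.03e-06). No other member lay more than 1.5 interquartile ranges beyond the members' quartiles in this comparison. Its IgG levels were 9.52, 1.76 and 13.9 CPM, spread on both sides of IP.

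mRpS31, a small-subunit protein known from mitochondria only, fell in much the same way. It had 36.3, 36.5 and 37.6 CPM in Input against 14.7, 11.7 and 11.4 CPM in IP, with no overlap (log2 fold change -1.55 ± 0.11, edgeR adjusted p = 2.15e-06). The 3 IgG libraries, with 19.2, 24.3 and 31.9 CPM, lay between, above every IP library and below every Input library.

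mRpL10, the large-subunit protein that anchors the stalk formed by mRpL12, had 41.9, 41.1 and 47.9 CPM in Input and 13.8, 17.4 and 14.8 CPM in IP. It fell by 1.51 on the log2 scale (SE 0.11, edgeR adjusted p = 2.61e-06), whereas its stalk partner mRpL12 did not pass the test, with 92.0, 86.9 and 86.0 CPM in Input, 99.8, 91.7 and 95.7 CPM in IP and a log2 fold change of 0.11 ± 0.06 (adjusted p = 0.126). That value of mRpL12 turned to -0.12 under a correction for exonic GC content. mRpL11, which lies at the base of the same stalk, was called lower with a smaller change of -0.27 ± 0.10 (adjusted p = 0.0347), and mRpL1, the protein of the opposite stalk where spent tRNA leaves, was called lower with -0.81 ± 0.09.

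mRpS21 completed the 4 lowest. It had 6.89, 7.81 and 9.75 CPM in Input and 3.21, 2.37 and 3.20 CPM in IP (log2 fold change -1.48 ± 0.22, edgeR adjusted p = 0.000268), and its call was lost in the fit of all 9 libraries (adjusted p = 0.104). Among members whose bacterial counterparts lie around the exit of the nascent chain, mRpL22, mRpL23, mRpL24 and mRpL17 were called lower, with log2 fold changes of -1.15, -0.93, -0.81 and -0.73, and mRpL32 was not, with -0.31 ± 0.13 (adjusted p = 0.0563). Of the pair at the rRNA core of the large subunit, mRpL2 was called lower with -0.73 ± 0.11 and mRpL3 was not, with -0.13 ± 0.06 (adjusted p = 0.0873). mRpS29, the GTP-binding protein called DAP3 in mammals, was called lower with -0.63 ± 0.09.

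**Figure D3:**
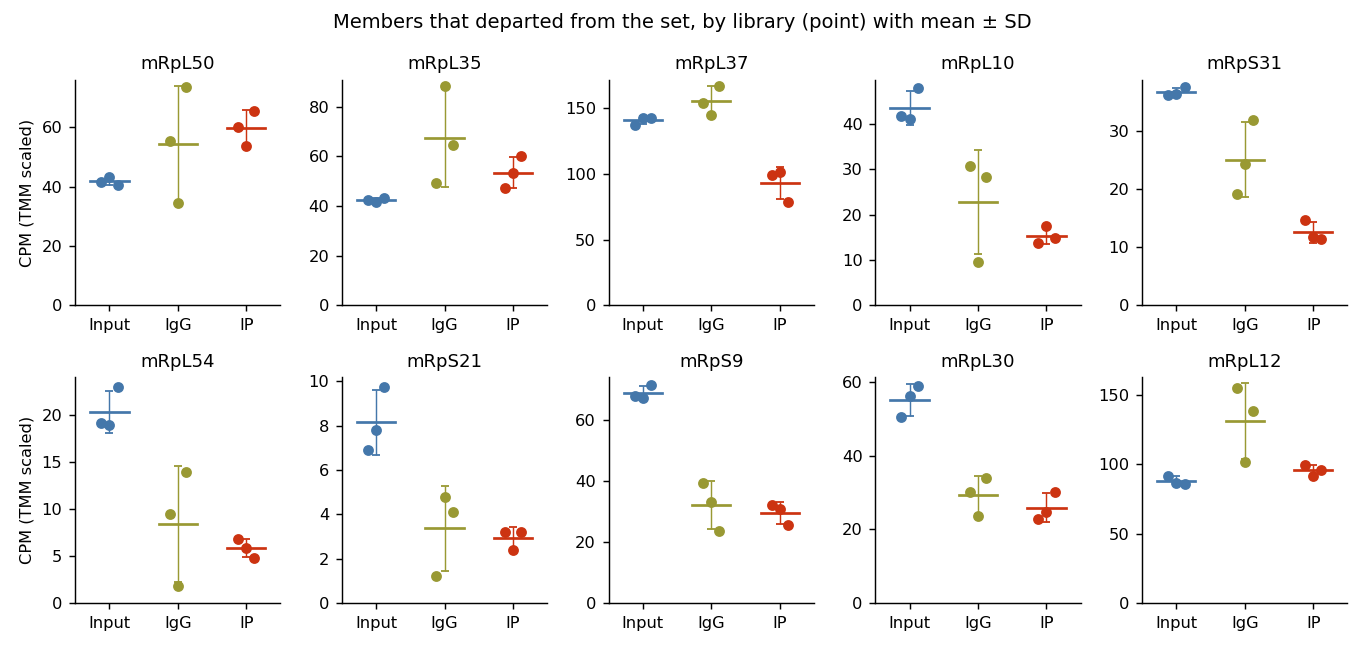
CPM of 10 mRp genes in each library (points) with the mean and SD of each group of 3, every vertical axis starting at 0. mRpL50 and mRpL35 are above Input in all IP libraries, mRpL37 is below both other groups in all IP libraries, and mRpS9 and mRpL30 are low in IgG and IP alike.

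Both members called higher in IP were large-subunit genes. mRpL50, known from mitochondrial ribosomes only, had 41.7, 43.2 and 40.6 CPM in Input and 60.3, 53.8 and 65.5 CPM in IP, a 1.43-fold increase (log2 fold change 0.51 ± 0.08, edgeR adjusted p = 0.000433). Its IgG libraries held 55.3, 34.5 and 73.7 CPM and spanned the range of both groups. mRpL35, which has a bacterial counterpart, had 42.4, 41.7 and 43.1 CPM in Input and 47.3, 53.1 and 60.0 CPM in IP (log2 fold change 0.33 ± 0.09, adjusted p = 0.0109), but 49.4, 88.4 and 64.6 CPM in IgG. Every IP and IgG library of mRpL35 was thus above every Input library. Both calls ended in the fit of all 9 libraries, with adjusted p of 0.133 for mRpL50 and 0.256 for mRpL35. mRpL13 and mRpL16 were the next highest with log2 fold changes of 0.20 ± 0.08 and 0.12 ± 0.07, and neither passed the test. mRpL13 (adjusted p = 0.0644) was called higher in 9 of 17 alternatives and mRpL16 in 1. mRpL13 shares 236 exonic bases with CG10602 on the same strand.

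Against the control pulldown, mRp genes were again below the whole, but single genes rarely passed. Of 70 members, 1 was called lower in IP than in IgG (3.2% of all genes were called lower) and 0 were called higher (4.77% of all genes). The median log2 fold change, IP over IgG, was -0.43 over mRp genes against 0.03 over all genes, and 65 of 70 members lay below 0. At an unadjusted p under 0.05, 21 members were lower (10% of all genes) and 0 higher (17.3% of all genes) by edgeR. DESeq2 called 10 lower and 0 higher after adjustment, against 7.24% and 8.88% of the 8537 genes to which it gave an adjusted p. Every IP library was below every IgG library in 27 members, against 13% of all genes, and above in 0 members, against 20.2% of all genes. The count of calls changed with the libraries kept. It was 13 without IgG replicate 1 (4.6% of all genes), 2 without IgG replicate 2 (4.15%) and 4 without IgG replicate 3 (4.08%). Without any one of the IP libraries it was 0, and the share of all genes in those fits is not given here. The median coefficient of variation of a member was 4.84% in Input, 10.1% in IP and 28.1% in IgG.

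The call belonged to mRpL37, the third most abundant member per kb. Its levels were 138, 143 and 143 CPM in Input, 154, 145 and 168 CPM in IgG and 99.1, 101 and 78.9 CPM in IP. All 3 IP libraries were below all 6 others. The log2 fold change was -0.71 ± 0.14 over IgG (edgeR adjusted p = 0.0178) and -0.60 ± 0.09 over Input (adjusted p = 0.000233). The first lost its call when any one IP library was left out and with library totals as the scale, with adjusted p up to 0.0789, and kept a value between -0.78 and -0.52 throughout. mRpL37 was the only member called lower than both Input and IgG, a result of 2.56% of all genes, and 0 members were called higher than both, a result of 4.13% of all genes. DESeq2 called 7 members lower than both (4.92% of all genes), and 11 were so called in the fit of all 9 libraries (5.46%). Without IgG replicate 1 the number was 9 (3.32% of all genes), and without IgG replicate 3 it was 4 (2.86%). Without any one of the IP libraries it was 0, for which the share of all genes is not given here.

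The lowest values against IgG did not pass the test. mRpL33, a short protein of the large subunit, had 18.3, 17.7 and 10.9 CPM in IgG and 7.47, 6.28 and 3.69 CPM in IP, with a log2 fold change of -1.40 ± 0.46 (edgeR adjusted p = 0.0933). Its groups did not overlap, and against Input it was called lower with -1.32 ± 0.28. mRpS18C followed with -1.01 ± 0.35, then mRpS31 with -0.97 ± 0.30 and mRpL43 with -0.93 ± 0.26, all with IP libraries below all IgG libraries and adjusted p between 0.0693 and 0.106. The highest values were those of mRpL50 (0.16), mRpL46 (0.15), mRpS35 (0.10) and mRpL36 (0.06), each with overlapping libraries and each turning negative when 1 IgG library was left out.

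IgG and Input differed less for this set. Of 70 members, 2 were called higher in IgG (10.3% of all genes) and 2 lower (16.6% of all genes), and with library totals as the scale 0 were called higher (6.88% of all genes) and 3 lower (19.8%). The median log2 fold change was 0.11 over mRp genes and -0.01 over all genes with TMM factors, and -0.02 and -0.14 with library totals, so the sign of the members' median depends on the scale while its place above the median of all genes did not. Here too the calls changed with the libraries kept. Without any one of the Input libraries 0 members were called in either direction, and the share of all genes in those fits is not given here. Log2 fold changes of the called members stayed at -1.12 to -1.08 for mRpS9, -0.97 to -0.87 for mRpL30, 0.55 to 0.61 for mRpL12 and 0.57 to 0.68 for mRpS25. Without IgG replicate 1 it was 9 higher and 3 lower (14.5% and 23.2% of all genes), and without IgG replicate 2 it was 5 higher and 4 lower (12.7% and 21.2%). Without IgG replicate 3 the numbers were 2 and 4 (14.9% and 21.8%).

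The pair called lower in IgG was also low in IP. mRpS9, whose bacterial counterpart contacts the tRNA in the P site, had 67.9, 67.1 and 71.6 CPM in Input, 39.4, 33.2 and 23.6 CPM in IgG and 32.1, 30.8 and 25.5 CPM in IP. IgG and IP libraries overlapped and both lay below Input, with log2 fold changes of -1.11 ± 0.20 for IgG over Input (edgeR adjusted p = 0.0148) and -1.23 ± 0.09 for IP over Input (adjusted p = 2.56e-06). Of its exons, 325 bases also lie in ArgRS-m on the opposite strand, itself a gene of mitochondrial translation. mRpL30 had 50.5, 56.1 and 58.8 CPM in Input, 30.1, 23.7 and 33.9 CPM in IgG and 22.7, 24.6 and 30.2 CPM in IP, and again only Input stood apart (-0.92 ± 0.18 in IgG, adjusted p = 0.0149, and -1.10 ± 0.12 in IP).

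mRpL12 and mRpS25 were the members called higher in IgG than in Input. mRpL12 had 155, 101 and 139 CPM in IgG, all above its Input and IP libraries (log2 fold change over Input 0.57 ± 0.16, edgeR adjusted p = 0.0439). mRpS25 had 40.9, 47.6 and 52.6 CPM in IgG against 29.8, 28.7 and 33.5 CPM in Input and 31.2, 32.6 and 27.1 CPM in IP (0.61 ± 0.16 over Input, adjusted p = 0.0345). Both lost the call without any one of the Input libraries and with library totals, and mRpL12 also without IgG replicate 1 or 3. With a GC correction neither was called. The other extremes did not pass in the fit of 6 libraries: mRpS18C (0.84), mRpL13 (0.72) and mRpL35 (0.67) at the high end, mRpL54 (-1.28), mRpS21 (-1.27) and mRpL22 (-0.95) at the low end. mRpL22 was close to the threshold (adjusted p = 0.0507) and was called lower in 11 of 17 alternatives. mRpL13 shows how uneven IgG was, with 40.6, 16.4 and 77.8 CPM in the 3 libraries.

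Large and small subunit moved in the same direction. Against Input, 28 of 46 mRpL genes (60.9%) and 11 of 24 mRpS genes (45.8%) were called lower (30.8% of all genes), with medians of -0.38 and -0.21. The mRpL median was below the mRpS median in each of the 3 same-numbered pairs, by 0.087, 0.252 and 0.266. Against IgG the medians were -0.45 and -0.39, and the difference within same-numbered libraries was 0.046, -0.186 and 0.001. Same-numbered IP and IgG libraries correlated at only 0.0655, 0.0364 and 0.184 and were not taken as pairs. These signs were therefore not set against those for IP over Input. For IgG over Input the medians were 0.11 and 0.10, and with library totals -0.01 and -0.03. Whether the subunits differ was not tested, as the genes of a subunit are not replicates. The ratio of summed mRpL to mRpS counts was 1.81 ± 0.020 in Input, 1.78 ± 0.0441 in IgG and 1.74 ± 0.102 in IP, so that the groups overlapped. From Input to IP this ratio rose in pair 1 (1.829 to 1.855) and fell in pair 2 (1.807 to 1.670) and pair 3 (1.789 to 1.688).

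**Figure D4:**
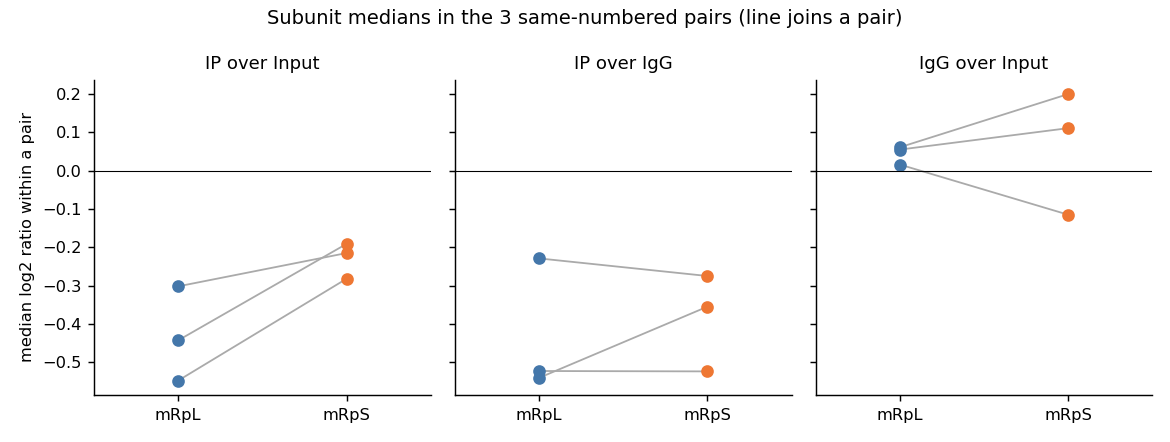
Median log2 ratio over the 46 mRpL and the 24 mRpS genes within each of the 3 same-numbered pairs of libraries, for each comparison; a line joins the subunits of a pair. For IP, all 6 medians are below 0 in the comparison with Input, as are the 6 in that with IgG. For IP over Input the mRpL median is the lower in 3 of 3 pairs. Where IgG libraries enter, the same number was not taken as a pair.

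mRpS18A and mRpS30 carry small-subunit names, although their mammalian homologs lie in the large subunit. With both counted in the large subunit, the medians for IP over Input stayed at -0.38 for the large and -0.21 for the small subunit. Of the 3 paralogs of bacterial S18, mRpS18A had 38.8, 49.0 and 53.5 CPM in Input and 27.2, 27.3 and 27.8 CPM in IP and was called lower (log2 fold change -0.78 ± 0.11, edgeR adjusted p = 0.000223). mRpS18B had 38.9, 36.9 and 38.8 CPM in Input and 37.4, 30.6 and 38.3 CPM in IP, and mRpS18C 20.5, 18.9 and 23.0 CPM against 18.4, 17.5 and 18.5 CPM. Neither passed the test, with -0.12 ± 0.10 and -0.20 ± 0.11. The difference between paralogs was not tested.

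Members were also sorted by the number in their symbol, with numbers up to L36 and S21 as the first kind and higher numbers as the second. The number stood in for a bacterial counterpart, but homology was not checked, so members of the second kind may have one too. The kinds had close medians, and no difference between them was tested. Of 41 tested members of the first kind, 22 (53.7%) were called lower in IP than in Input and 1 (2.44%) higher, with a median of -0.31. Of 29 of the second kind, 17 (58.6%) were called lower and 1 (3.45%) higher, with a median of -0.33. Over all genes 30.8% were called lower and 28.5% higher. Against IgG both medians were -0.43. Extremes came from both kinds: mRpL10, mRpL33 and mRpS21 from the first, mRpL54, mRpS31, mRpL37 and mRpL50 from the second.

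Some parts of the mitoribosome carry other symbols. bonsai, the fly homolog of bacterial S15, had 78.9, 76.2 and 84.4 CPM in Input and 46.8, 41.1 and 39.4 CPM in IP, and was called lower (-0.92 ± 0.08, edgeR, adjusted p = 6.41e-06). tko, the homolog of S12 at the decoding centre, had 34.8, 33.4 and 33.3 CPM in Input, 40.5, 36.4 and 36.4 CPM in IP and 59.4, 58.4 and 55.1 CPM in IgG. It was called higher in IgG than in Input (0.77 ± 0.13, adjusted p = 0.0105), and not in IP (0.15 ± 0.08). Of the mitochondrial rRNAs, mt:lrRNA had 24350, 24710 and 25080 CPM in Input, 14300, 16580 and 20930 CPM in IgG and 2758, 2334 and 1416 CPM in IP. The 3 groups did not overlap, and mt:lrRNA was called lower in IP than in Input (-3.52 ± 0.25, adjusted p = 3.07e-05) and than in IgG (-2.97 ± 0.26, adjusted p = 0.000654). mt:srRNA was at 0 to 5.76 CPM in these poly(A)-selected libraries and gave no call.

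The other nuclear genes of mitochondrial gene expression were less uniform. Over 31 tested genes of this kind, tko and bonsai included, 14 (45.2%) were called lower and 4 (12.9%) higher in IP than in Input. Over all genes the shares were 30.8% lower and 28.5% higher. The median of the 31 genes was -0.22. Against IgG their median was -0.02, with 1 called lower and 0 higher (3.2% and 4.77% of all genes). At an unadjusted p under 0.05, 4 were lower and 2 higher (10% and 17.3% of all genes). Among 8 translation factors, 4 were called lower than Input and 0 higher (1 at an unadjusted p under 0.05), led by mEFG1, an elongation factor that drives translocation (-1.48), and mEFTu2, a carrier of aminoacyl-tRNA (-1.02), which was also called lower than IgG (-1.23, edgeR adjusted p = 0.0390). Its paralog mEFTu1 was at -0.03 and did not pass. Of 14 mitochondrial aminoacyl-tRNA synthetases, 8 (57.1%) were called lower and 2 (14.3%) higher (AspRS-m 0.41 and AlaRS-m 0.29). Against IgG their median was 0.12 with 0 called in either direction (2 higher at an unadjusted p under 0.05, a result of 17.3% of all genes). Of 7 tested transcription and RNA factors 2 were called higher than Input, mtTFB2 and mTerf5 (28.6%, near the 28.5% of all genes). In the other direction 1 was called lower, mTerf3 (14.3%), while the transcription factor TFAM did not pass (0.09).

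The cytoplasmic ribosomal protein genes lay lower still, a difference given as a description and not tested. Of 81 tested genes of that set, 79 (97.5%) were called lower in IP than in Input (median -1.38), against 30.8% of all genes. Lower than in IgG were 76 (93.8%, median -1.13), against 3.2% of all genes. In either comparison 0 were called higher (1 at an unadjusted p under 0.05 in each), against 28.5% and 4.77% of all genes. The lower quartile of mRp genes was -0.76 against Input, above the upper quartile of cytoplasmic ribosomal protein genes, -0.98. The 20 mRp genes with a pyrimidine run counted near the start, before or after it, had a median of -0.37 against Input, with 11 called lower. The 50 without had -0.33, with 28 called lower. Against IgG the medians were -0.48 and -0.40. Tested protein-coding genes had medians against Input of -0.02 with such a run (861 of 2571 called lower) and 0.02 without (1734 of 5679). The 15 members with a DRE had -0.57 against Input, with 9 called lower, and -0.55 against IgG. The 55 without had -0.32, with 30 called lower, and -0.43. Against Input, tested protein-coding genes had medians of -0.10 with a DRE (448 of 1103 called lower) and 0.03 without (2147 of 7147). In the cytoplasmic set the order was the other way, with -1.12 and -1.42. No difference by tract or DRE was tested.

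**Figure D5:**
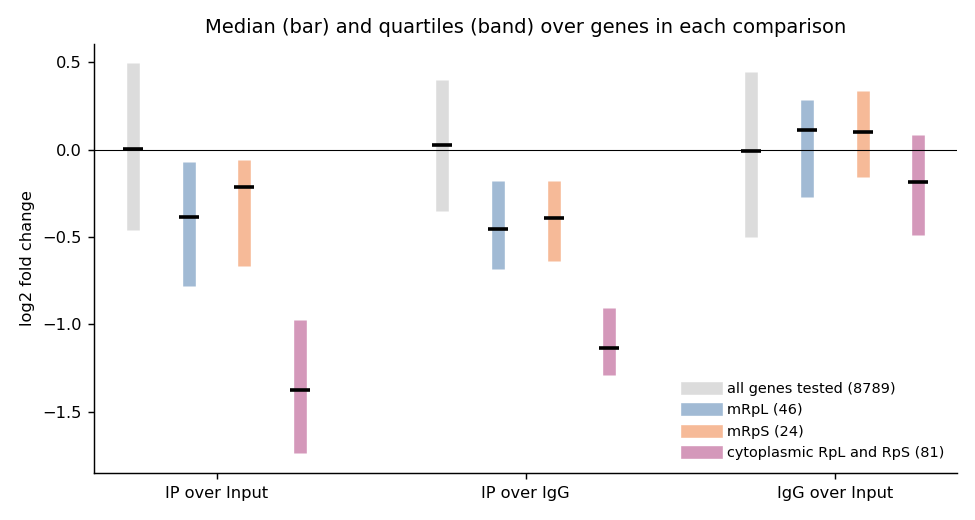
Median (bar) and quartiles (band) of the log2 fold change over all 8789 genes tested, 46 mRpL genes, 24 mRpS genes and 81 cytoplasmic ribosomal protein genes in each comparison. Both mRp subunits lie below all genes in IP over Input and IP over IgG and above the cytoplasmic set; in IgG over Input their medians of 0.11 and 0.10 fall below 0 when library totals are the scale.

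Member transcripts are short, with a median of 783 exonic bases (327 to 2078) against 2093 over all genes tested, and near the whole in GC content, with a median of 50.1% against 48.9%. Within the set, the log2 fold change of IP over Input was hardly related to log2 exon length (Pearson r = -0.004, Spearman rho = -0.095, 70 genes), and over IgG the values were 0.169 and 0.133. With exonic GC content the values were 0.301 and 0.227 over Input and 0.368 and 0.371 over IgG. Over IgG the GC relation differed in size between subunits, with r = 0.557 over 46 mRpL genes and -0.026 over 24 mRpS genes. These are relations across genes measured in the same libraries, and genes are not independent replicates. With a correction for exon length the members' median was -0.26 against Input and -0.39 against IgG, and with one for GC content -0.38 and -0.47.

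The members lie apart in the genome, 21 on chromosome arm 3R, 15 on 3L, 12 on 2L, 12 on 2R and 11 on X. Exons of 41 of the 71 overlap exons of another gene on either strand, 40 of them on the opposite strand and 3 on the same strand (mRpL13, mRpS14 and mRpL53). For most the shared stretch is short, such as 60 bases between mRpL50 and Neos, 83 between mRpL35 and CG6028, 40 between mRpL10 and CG11617, and 48 between mRpS31 and mib1, all on the opposite strand. mRpL37 and mRpL12 share none with another gene. The library kit marks strand, but the strand setting of the counting is not given in the sources used here, so reads from opposite-strand partners cannot be told apart.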

How the data were processed

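Ovary lysates were sampled as Input, IgG and IP, with 3 libraries each, and poly(A) RNA was sequenced. The authors deposited raw counts per gene, and the submitters' processing notes name HISAT2 2.1.0, featureCounts 1.4.6 and dm6. Symbols, exons and starts came from Ensembl's BDGP6 annotation (16647 of 17024 IDs named) and sequences from the Release 6 genome. Each comparison was fitted on its 6 libraries with edgeR 4.0.16 in R 4.3.3 (TMM factors, quasi-likelihood test, filterByExpr with a minimum count of 10), and called two-sided at a Benjamini-Hochberg adjusted p under 0.05. DESeq2 1.42.0 was an alternative, beside other scales, filters, length and GC corrections, a replicate block and leaving out each library.

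The fits were tested on simulated data over 8789 genes. Of 67 genes changed 2-fold, 76.1% were recovered for IP over Input, 31.3% for IP over IgG and 43.3% for IgG over Input. Of 67 changed 1.5-fold, 58.2%, 11.9% and 11.9% were recovered. False calls among unchanged genes were 14, 8 and 3. Apart from the changed genes, every simulated library was drawn from each gene's mean over the 9 libraries. Fewer genes were changed there than were called in the data, which were 5206, 700 and 2364 of 8789 in the same order. The recovered shares may therefore differ from those of the fits reported here. Same-numbered Input and IP libraries deviated together (correlations 0.26, 0.286 and 0.369, numbers from the sample labels). Depth was 30533376 to 47080956 counts per library, and floors cover counting error only. Named by rule were genes that failed the filter, the 4 highest and 4 lowest per comparison, genes called against the members' median, genes outside 1.5 interquartile ranges of the quartiles, genes called the same way against Input and IgG, the 6 highest and 4 lowest in Input per kb, the S18 paralogs, tko, bonsai and the mitochondrial rRNAs. Members named for a role, and the genes named from other lists, were chosen after their values were seen. Members, lists and motifs were chosen with earlier results of these data known.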

Additional observations from a re-analysis of the deposited data

How the results depend on the processing

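Of the recomputed counts, shares and medians, 229 stayed within 1.5 times or the replicate spread and 77 moved. For IP over Input, 5 members were called higher with library totals and 4 with a length correction and replicate block. All 9 libraries in one fit called 0 higher (15.1% of all genes) and 19 lower (16.5%). Where a count in this part has no share of all genes beside it or above, a change in the members cannot be told from one in all genes. The members' median was -0.232 with library totals (0.1 over all genes), -0.360 without a filter (-0.083), -0.264 with a length correction (-0.045), -0.268 with that and the replicate block (-0.069), -0.376 with a GC correction (0.002) and -0.377 with that and the block (-0.023), and the mRpS median -0.121 with library totals, -0.164 with the length correction and -0.163 with the block added. The replicate block, where the numbers pair the samples, changed no other count for IP over Input by over 1.5 times.

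For IP over IgG, the count called lower was 10 with DESeq2 (7.24% of all genes), 0 with library totals and 19 with all 9 libraries. It was 2 with the replicate block alone or with length, and 3 with GC and the block. Apart from DESeq2, the share of all genes in these fits is not given here. With library totals the medians were -0.251 (mRp), -0.272 (mRpL) and -0.197 (mRpS), beside 0.217 over all genes. For IgG over Input, those called higher were 5 with DESeq2, 0 with library totals, 5 with all 9 libraries, and 1 with the replicate block, with length and the block, or with GC, and those called lower 5 with the block, 5 with length and the block and 6 with GC and the block. The mRpL median was 0.140 with DESeq2 or its size factors, -0.011 with library totals (mRp -0.015), 0.070 with the block, 0.085 with length and the block, 0.087 with GC and 0.042 with GC and the block. Same-numbered libraries correlated at 0.0655, 0.0364 and 0.184 for IP and IgG and 0.0923, 0.0903 and 0.178 for IgG and Input. Between differently numbered libraries the highest values were 0.0838 and 0.0249. The numbers were not taken as pairs there, although for IgG and Input every same-numbered value was above the highest of the others. With the replicate block, the calls of mRpS25 for IgG over Input (adjusted p = 0.106) and of mt:lrRNA for IP over IgG (adjusted p = 0.137) were lost, and mRpL12 kept its call for IgG over Input (adjusted p = 0.0137). Called lower than both controls were 7 with DESeq2, 0 with library totals, 11 with all 9 libraries and 2 with the block alone, with length or with GC. The cause of these changes was not tested. The IgG share without the unnamed feature was 0.3184%, and exon sharing on either strand, in place of the same strand, gave 41 members.

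Leaving out 1 library gave 2 to 3 members higher and 35 to 40 lower for IP over Input, 0 higher and 0 to 13 lower for IP over IgG, 0 to 9 higher and 0 to 4 lower for IgG over Input, and 0 higher and 0 to 9 lower against both. The medians (mRp, mRpL, mRpS) ran from -0.358 to -0.241, -0.413 to -0.372 and -0.245 to -0.195 for IP over Input, from -0.505 to -0.288, -0.502 to -0.303 and -0.535 to -0.277 for IP over IgG, and from 0.007 to 0.152, 0.007 to 0.137 and 0.027 to 0.199 for IgG over Input.

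Signs turned for single genes that passed no test in either fit. For IP over Input, mRpL12 was at -0.1221 with GC and -0.1228 with GC and the block, mRpS7 at 0.0253 with library totals, 0.0321 with GC and 0.0307 with GC and the block, mRpS10 at -0.0445 without IP replicate 3 and mRpS24 at -0.0069 without IP replicate 2. For IP over IgG, mRpL36 was at -0.0497 without IP replicate 1 and -0.4436 without IgG replicate 2, mRpL46 at -0.2452 without IgG replicate 1, and mRpL50 at -0.1040 and mRpS35 at -0.0786 without IgG replicate 2. The highest values with 1 library left out were 0.1308 for mRpS10 and 0.1527 for mRpS24 (IP over Input), and 0.5855 for mRpL36, 0.4685 for mRpL46, 0.4436 for mRpL50 and 0.305 for mRpS35 (IP over IgG). Counting mRpS18A and mRpS30 with the large subunit was chosen after seeing the data and called 30 of 48 large-subunit and 9 of 22 small-subunit members lower than Input.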
